A study of Mus musculus with 12 samples.

Results

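The large subunit of the cytosolic ribosome, the 60S subunit, is built from ribosomal RNA and a set of proteins whose genes are named Rpl or Rplp. The values below are for 47 of the 23420 gene symbols in the deposited counts: the genes for cytosolic 60S proteins and the paralogs Rpl22l1 and Rpl36al, chosen by symbol. All 47 were counted and all 47 had enough reads to be tested in RNA, in footprints and in the ratio between them. The members lie on 18 chromosomes.

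The data come from R1 cells, a mouse embryonic stem cell line kept on gelatin with the cytokine LIF. The treated cells received an siRNA against Krr1 and were collected 48 h after transfection. Every lysate was split into a ribosomal-RNA-depleted RNA-seq library, from RNA fragments of 40 to 60 nt, and a ribosome profiling library, from the stretches of about 30 nt that ribosomes protect from nuclease (footprints). Each of these assays has 3 controls, named siGFP, siNC and Lipo, and 3 Krr1 knockdowns, here called knockdowns A, C and D after the letters in the data (siKrr1 A, C and D in the plots). The labels describe the controls as siRNAs, although the name Lipo states none. They do not say that the libraries of a group came from separate cultures, so p-values measure the spread between these samples only. That spread includes differences between the siRNAs of a group, and the rest of it may be technical. All groups share the cell line, the medium and the transfection, and the siRNAs differ within a group.

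Ribosomal proteins are made in the cytoplasm, carried to the nucleolus and fitted onto ribosomal RNA as it is processed. Krr1 is a protein of the small-subunit processome, which builds the other subunit, 40S. Most mammalian ribosomal protein mRNAs begin with a C followed by a run of pyrimidines, the terminal oligopyrimidine (TOP) tract, which links their translation to growth signalling. A few 60S proteins also act outside the ribosome: free Rpl5 and Rpl11 bind and inhibit Mdm2, the ubiquitin ligase of p53.

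The TOP tract is a feature that the choice of members did not use, so it was read from RefSeq start sites (mouse build GRCm38.p6). The window ran from 10 bases before to 20 bases from the annotated start, on the transcript strand. The 6 windows shown here belong to the called paralog, to the other paralog and to 4 further members that hold a pyrimidine run. They were picked, so they do not show how common the run is among members. The longest pyrimidine run is in capitals where it has at least 8 bases:
Rpl22l1, chr3:28805498-28805527, plus strand: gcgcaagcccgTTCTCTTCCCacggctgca
Rpl36al, chr12:69184048-69184077, minus strand: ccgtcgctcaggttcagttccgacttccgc
Rpl35, chr2:39005112-39005141, minus strand: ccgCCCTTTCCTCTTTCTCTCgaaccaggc
Rpl28, chr7:4792955-4792984, plus strand: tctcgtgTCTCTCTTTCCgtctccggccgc
Rpl38, chr11:114668570-114668599, plus strand: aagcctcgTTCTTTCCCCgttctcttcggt
Rpl27a, chr7:109519185-109519214, plus strand: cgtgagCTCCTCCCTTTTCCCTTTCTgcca

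The run was 20 bases long in Rpl27a, 18 in Rpl35, 11 in Rpl28 and 10 in Rpl22l1 and in Rpl38. The Rpl36al window held no run of 8. Of the 36 members with a RefSeq window, 15 (41.7%) held a run of at least 8 pyrimidines, against 13.0% of 27025 genes. The letters CTTTCC, which overlap such runs, stood in 7 members (19.4%) and in 1.53% of all genes. An annotated start can lie some bases from the start that cells use, and a window without the run says only that these letters are not in it.

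Reads on genes numbered 31318772 to 39670139 per RNA library and 21615934 to 28911254 per footprint library. Values are in CPM, a gene's reads scaled to 1000000 reads on genes. Krr1 RNA was 156, 149 and 159 CPM in siGFP, siNC and Lipo and 33.5, 57.5 and 67.0 CPM in knockdowns A, C and D. Its knockdown mean was 34.1% of control in RNA and 29.9% in footprints (edgeR quasi-likelihood test, adjusted p = 0.00228 and 0.000819). The 10 stem cell markers read summed to 8383 to 8494 CPM in control RNA and 7042 to 8012 in the knockdowns, with none at 0. The 9 fibroblast markers summed to 5.05 to 10.2 CPM over the 6 RNA libraries, and the 5 primitive endoderm markers to 2.52 to 3.52. The part of these shifts in the results below was not tested.

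Reads were very unequally spread over the 60S protein genes. In control RNA they ran from 1.15 ± 0.290 CPM for Rpl29 to 3803 ± 82.7 CPM for Rpl8 (SD, n = 3), and in control footprints from 0.653 ± 0.212 CPM for Rpl35 to 2926 ± 25.0 for Rpl8. The 4 most counted members held 59.3% of all member reads in RNA and 70.6% in footprints. Of the 47 members, 18 reached 100 CPM in RNA and 15 in footprints, while 8 and 27 stayed under 10 CPM. The lowest count of any member in a library was 28 reads in RNA (Rpl29) and 12 in footprints (Rpl35). These are reads counted per gene, not corrected for gene length, so they give no order of expression between genes.

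Only uniquely aligned reads were counted, and ribosomal protein genes have many processed pseudogenes, near-copies elsewhere in the genome that make reads of the parent gene ambiguous. RefSeq lists 196 pseudogene entries named after members, for 38 of the 47, with 24 for Rpl31, 15 for Rpl21 and 14 for Rpl7a. The 20 members with 0 or 1 such entry had a median of 230 CPM in control RNA and 171 in footprints. The 12 with 2 to 4 entries had 27.5 and 7.13 CPM, and the 15 with 5 or more had 12.8 and 3.95. Ranges were wide: the 20 with 0 or 1 entry ran from 2.96 to 3803 CPM in RNA and from 0.653 to 2926 in footprints. Across the 47 genes, Spearman's rho between entries and control CPM was -0.49 in RNA and -0.50 in footprints. All these points come from the same libraries, so the correlation is a description. The counted part of a gene with many copies may therefore be small, and its values are uncertain. The share of RNA and footprints that is lost can also differ, and control footprints per RNA read ranged from 0.00715 for Rpl15 to 3.18 for Rpl37.

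**Figure D1:**
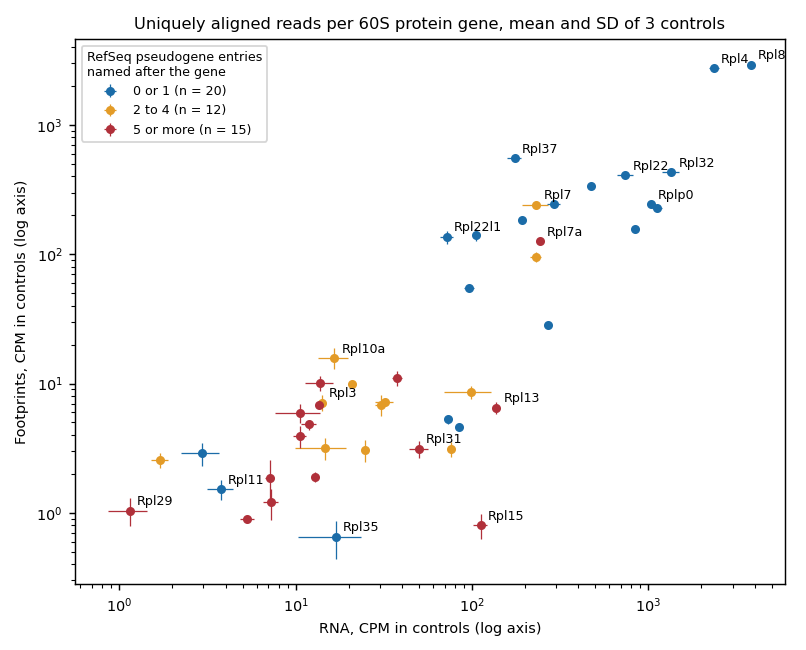
Reads per gene in the 3 controls for the 47 genes, in RNA (horizontal, CPM, log axis) and footprints (vertical, CPM, log axis); points are means, bars are SD and colours give the number of RefSeq pseudogene entries named after the gene. Genes with 5 or more entries reach at most 242 CPM in RNA and 126 CPM in footprints. Rpl8 and Rpl4, with none, lie at 2356 CPM or more in RNA and 2748 CPM or more in footprints. Rpl11 and Rpl24, also with none, lie at 3.77 and 2.96 CPM in RNA and 1.5 and 2.9 CPM in footprints.

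The first question was whether RNA of the 60S protein genes differed after Krr1 knockdown. Rpl22l1, the paralog of Rpl22, fell, and it was the only member called in RNA. Values of most other members were slightly lower in the knockdowns: 43 of 47 log2 fold changes were below 0, against 50.2% of the 14038 genes tested, and their median was -0.18, against -0.001 for all genes. The folds ran from -0.63 for Rpl26 to 0.17 for Rpl15, with Rpl39 (0.05) and Rpl6 (0.01) next below Rpl15, and 43 of 47 lay within 0.5 of 0. A call is an adjusted p under 0.05 in the edgeR quasi-likelihood test with Benjamini-Hochberg adjustment over all genes tested: 1 of 47 members was called lower, where 2.11% of all genes were, and 0 of 47 were called higher, where 2.69% were. At an unadjusted p under 0.05, 11 members were lower (23.4%), where 9.83% of all genes were, and 0 were higher, where 11.1% were. The 11 are Rpl7a, Rpl13a, Rpl14, Rpl17, Rpl22l1, Rpl26, Rpl28, Rpl35, Rpl36, Rpl36al and Rpl37a. The 18 members with at least 100 CPM had a median of -0.12. DESeq2, run as an alternative, called 5 members lower, namely Rpl22l1, Rpl26, Rpl36, Rpl36al and Rpl37a, among 533 genes lower and 662 higher. Rpl36al and Rpl37a were also called in edgeR when knockdown A was left out, and Rpl36 when knockdown C was left out.

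All 3 knockdown libraries lay below the controls on this measure, and by unequal amounts. The median member deviated from its control mean by -0.08, -0.10 and -0.24 on the log2 scale in knockdowns A, C and D, against 0.03, -0.04 and 0.01 in siGFP, siNC and Lipo. Library D thus carried the largest deviation, and it was the lowest of the 6 RNA libraries in 30 of 47 members, where it was lowest in 17.2% of all genes. Without D the RNA median was -0.09, with 38 of 47 members below 0. In that fit 6 members were lower at an unadjusted p under 0.05, where 9.2% of all genes were. The library siGFP was the highest in 21 members, where it was highest in 18.6% of all genes, and without it the median was -0.14 with 43 below 0. All 47 members together took 1.44%, 1.46% and 1.47% of reads on genes in siGFP, siNC and Lipo, and 1.40%, 1.40% and 1.27% in knockdowns A, C and D. The groups did not overlap on this share, and its knockdown mean was 93.1% of control. In bulk libraries these are shares of all mRNA reads, and fewer cells making an RNA cannot be told apart from less of it per cell.

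**Figure D2:**
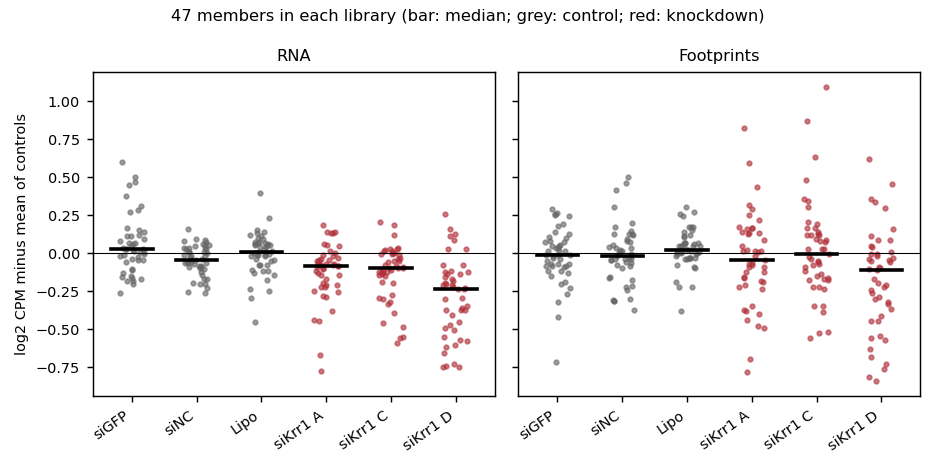
Each point is 1 of the 47 genes in 1 library, as log2 CPM minus the mean of the 3 controls (vertical axis), for RNA and footprints; bars are medians. The RNA medians of the knockdown libraries are -0.08, -0.10 and -0.24, below those of all 3 controls, while the footprint medians of the knockdowns are -0.05, -0.00 and -0.11, with C inside the control range of -0.02 to 0.02. No scaling factors enter these values. Medians over all genes tested were -0.002, -0.004 and 0.059 in knockdown RNA and 0.024, 0.03 and 0.056 in knockdown footprints. In siGFP, siNC and Lipo they were 0.022, -0.01 and -0.005 in RNA and -0.0, 0.002 and 0.001 in footprints.

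In footprints Rpl22l1 fell again and was the only member called: 1 of 47 lower, where 2.68% of the 13287 genes tested were, and 0 of 47 higher, where 3.39% were. The other folds fell on either side of 0, with 35 of 47 below 0, against 48.5% of all genes, a range of -0.61 to 0.62 and a median of -0.10, against 0.01 for all genes. At an unadjusted p under 0.05, 7 members were lower (10.5% of all genes) and 3 were higher (12% of all genes). The 7 are Rpl13a, Rpl14, Rpl22l1, Rpl26, Rpl30, Rpl31 and Rpl36al, and the 3 are Rpl10a, Rpl39 and Rplp2. DESeq2 called Rpl10a and Rpl39 higher (adjusted p = 0.0279 and 0.0403) beside Rpl22l1 lower, among 521 genes lower and 622 higher. Without knockdown A edgeR called Rpl14 and Rpl36al lower too, without C it called Rpl10a higher and without D it called Rpl39 higher. The 15 members with at least 100 CPM in footprints had a median of -0.03. Library D was the lowest in 24 of 47 members, where it was lowest in 14.5% of all genes. Knockdown C went the other way: it was the highest in 16 members, where it was highest in 15.2% of all genes. Without D the median was -0.04, and 29 of 47 were below 0. The count of members lower at an unadjusted p under 0.05 was 3 without D, 3 without Lipo and 10 without C. Of all genes, 9.5%, 7.34% and 11.6% were lower at that level in these fits. The members took 0.941%, 0.934% and 0.955% of footprints in the controls and 0.938%, 0.991% and 0.886% in knockdowns A, C and D. These groups overlapped, and the knockdown mean was 99.5% of control. This share is of reads on genes, which were 42.39%, 41.04% and 41.63% of unique alignments in the controls. They were 39.48%, 36.6% and 42.15% in knockdowns A, C and D. As a share of all unique alignments, the members were lower in every knockdown than in every control.

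**Figure D3:**
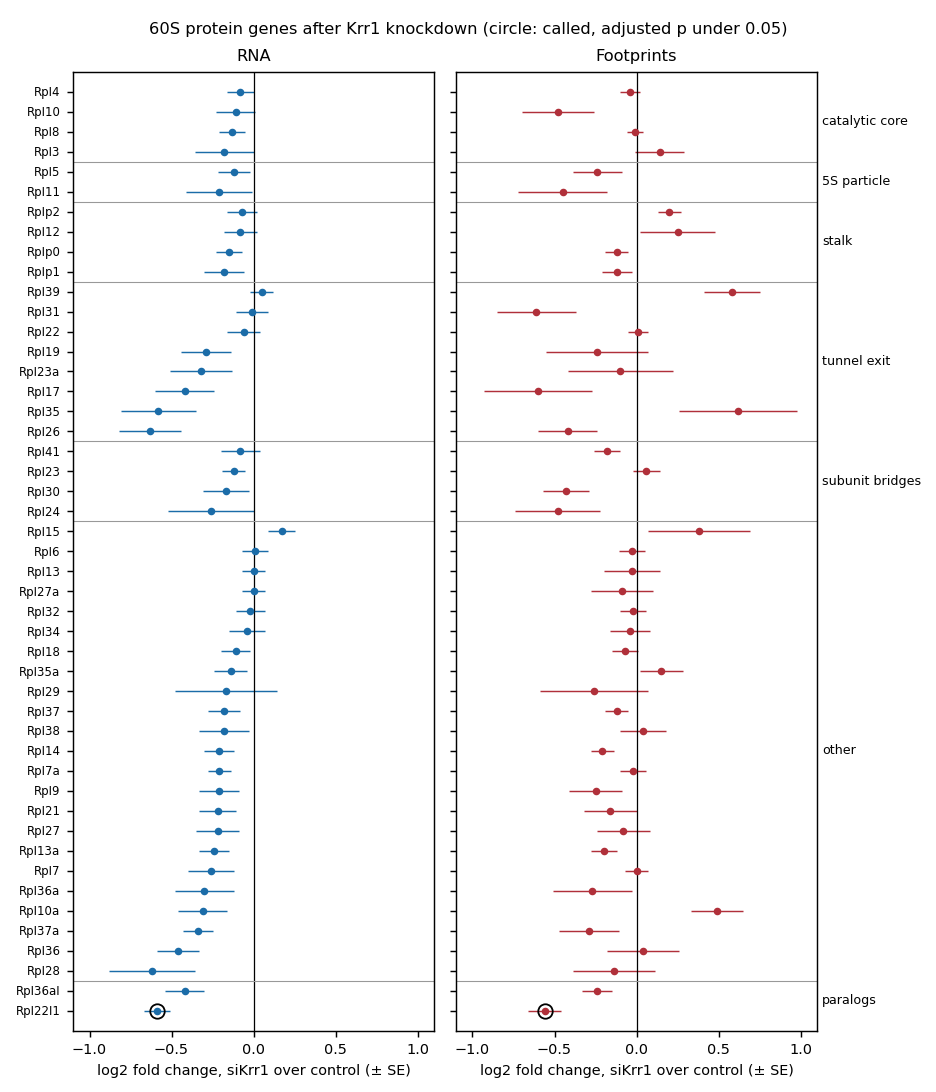
Log2 fold change of each gene after Krr1 knockdown (point, with its standard error as a bar) in RNA and in footprints, grouped by the role of the protein. Most RNA points lie left of 0 and within 0.5 of it, footprint points lie on either side, and only Rpl22l1, circled, was called, at -0.59 in RNA and -0.56 in footprints.

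Rpl22l1 (chr3:28805508-28807424) encodes a paralog that can take the place of Rpl22 in the subunit. Its RNA stood at 66.5, 71.0 and 77.9 CPM in siGFP, siNC and Lipo and at 45.1, 48.8 and 50.9 CPM in knockdowns A, C and D. All knockdown libraries were lower than all controls, and the 3 knockdowns were close to each other. The mean went from 71.8 ± 5.70 to 48.3 ± 2.93 CPM (SD, n = 3), 67.2% of control, a log2 fold change of -0.59 ± 0.08 (SE) with adjusted p = 0.00601 in the edgeR quasi-likelihood test. The call was kept when any of the 6 libraries was left out, with folds of -0.65 to -0.53 and a largest adjusted p of 0.0431 in edgeR. The gene has no RefSeq pseudogene entry named after it and no small nucleolar RNA gene inside it. Copies listed under other names were not searched. At least 1412 reads were counted in every RNA library.

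Footprints on Rpl22l1 were 154, 121 and 134 CPM in siGFP, siNC and Lipo and 104, 94.6 and 84.3 CPM in knockdowns A, C and D. The groups again did not overlap. The mean went from 136 ± 16.4 to 94.4 ± 9.92 CPM (SD, n = 3), 69.3% of control, and the log2 fold change was -0.56 ± 0.10 (SE; edgeR adjusted p = 0.00986). This call was lost without siGFP (-0.46, edgeR adjusted p = 0.0538) and without Lipo (-0.57, edgeR adjusted p = 0.0589). Footprints per RNA read were 2.31, 1.71 and 1.72 in the controls and 2.31, 1.94 and 1.66 in knockdowns A, C and D. The values overlapped, and the change of the ratio was 0.03 ± 0.14 (SE) on the log2 scale, so RNA and footprints were lower by similar amounts within that error.

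Rpl22 itself (chr4:152324436-152334082), an RNA-binding protein near the tunnel exit that is known to hold down expression of its paralog, gave no call. Its RNA was 649, 786 and 788 CPM in the controls and 740, 737 and 677 CPM in the knockdowns, a log2 fold change of -0.06 ± 0.10 (SE). Its footprints were 400, 414 and 415 CPM in the controls and 414, 450 and 396 CPM in the knockdowns, a log2 fold change of 0.01 ± 0.06. Both sets of values overlapped. For every 100 Rpl22 reads in RNA there were therefore 10.3, 9.04 and 9.88 Rpl22l1 reads in siGFP, siNC and Lipo and 6.10, 6.62 and 7.52 in knockdowns A, C and D. In footprints there were 38.4, 29.3 and 32.3 in the controls and 25.2, 21.0 and 21.3 in the knockdowns. The ratio, which does not depend on the scaling of libraries, was lower in all 3 knockdowns than in all 3 controls in each assay, by 0.53 on the log2 scale in RNA and 0.56 in footprints. The exact two-sided permutation test gave p = 0.1 for each, the smallest that 3 against 3 can give, and 0.2 after adjustment over the 4 paralog ratios tested.

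**Figure D4:**
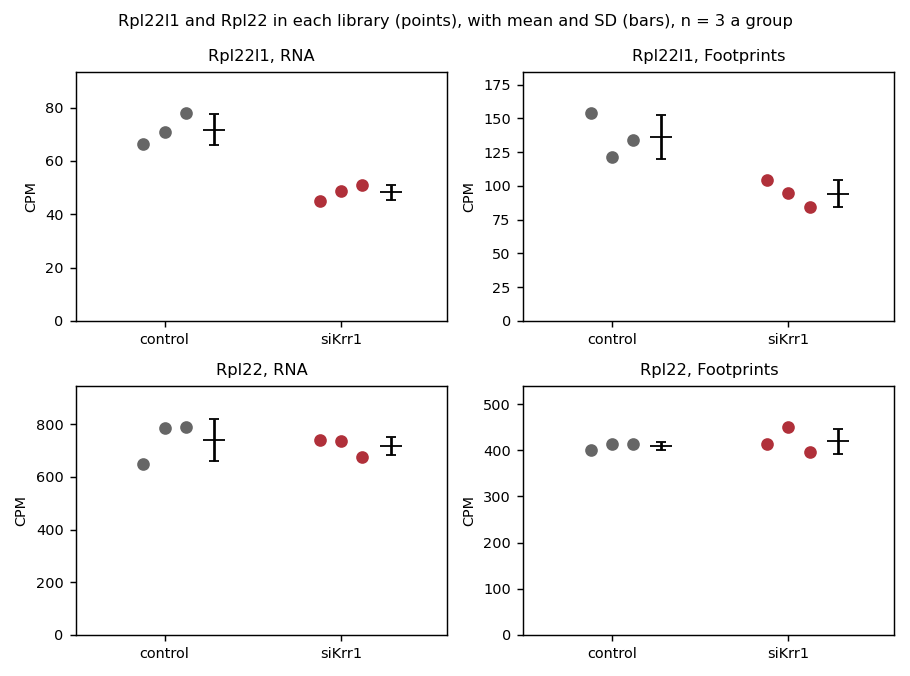
Rpl22l1 (top) and Rpl22 (bottom) in CPM, from 0, in the 3 control and 3 knockdown libraries of each assay (points, in the order siGFP, siNC, Lipo and A, C, D), with mean and SD beside them. Every knockdown value of Rpl22l1 lies below every control value in both assays, while the Rpl22 values of the groups overlap.

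Rpl36al (chr12:69182734-69184067), the paralog of Rpl36a, had RNA values of 93.7, 91.4 and 104 CPM in the controls and 87.1, 68.6 and 63.1 CPM in knockdowns A, C and D. The groups did not overlap, but A stood near the controls. The log2 fold change of -0.42 ± 0.12 (SE) was not called in edgeR (adjusted p = 0.0691). In footprints it had 56.2, 55.3 and 53.5 CPM in the controls and 53.2, 48.7 and 41.2 CPM in the knockdowns, again without overlap and without a call (-0.24 ± 0.09; edgeR adjusted p = 0.165). Rpl36a had a control mean of 14.6 CPM in RNA, in which siGFP (20.01) stood apart from siNC (11.8) and Lipo (11.9). The number of Rpl36al reads per Rpl36a read was 4.68, 7.72 and 8.72 in control RNA and 7.18, 5.96 and 5.12 in the knockdowns, which overlap (exact permutation test, two-sided, p = 0.7). The same ratio in footprints gave p = 1.0 in that exact test.

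The catalytic core proteins Rpl3, Rpl4, Rpl8 and Rpl10 surround the peptidyl transferase centre, where peptide bonds are made, or line the start of the exit tunnel. No gene among them was called, and their RNA folds lay between -0.18 and -0.08. Rpl8, the most counted member, had 3898, 3757 and 3753 CPM of RNA in siGFP, siNC and Lipo and 3660, 3666 and 3244 in knockdowns A, C and D. These knockdown values all lie under the controls, with a fold of -0.13 ± 0.08 (SE). Its footprints were 2954, 2907 and 2916 CPM in the controls and 3021, 3080 and 2806 in the knockdowns, a fold of -0.01 ± 0.05. Rpl4 had footprints of 2721, 2680 and 2843 CPM against 2628, 2919 and 2663, a fold of -0.04 ± 0.06, and both genes therefore gave nearly the same footprint share in the groups. Rpl3 was at -0.18 ± 0.18 in RNA and 0.14 ± 0.15 in footprints. Rpl10, which joins the subunit late and completes the tRNA sites, was at -0.11 ± 0.12 in RNA and -0.48 ± 0.22 in footprints on 3.95 ± 0.747 CPM in controls (SD, n = 3).

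Rpl5 and Rpl11 enter the subunit together with the 5S ribosomal RNA. Rpl5 RNA was 35.7, 28.2 and 31.9 CPM in the controls and 30.3, 29.1 and 30.1 CPM in the knockdowns, which overlapped. Rpl11, at 4.51, 3.50 and 3.30 CPM in the controls and 3.19, 3.82 and 2.87 CPM in the knockdowns, overlapped as well. In footprints the Rpl5 fold was -0.24 ± 0.15 and the Rpl11 fold -0.45 ± 0.27 (SE). Rpl11 footprints were 1.66, 1.21 and 1.70 CPM in the controls and 1.11, 1.18 and 1.11 in the knockdowns, without overlap and without a call in edgeR (adjusted p = 0.362). Rpl23 and Rpl26 are known to bind Mdm2 too: Rpl23 was at -0.12 ± 0.07 in RNA and 0.06 ± 0.08 in footprints. Rpl26 had 14.1, 9.0 and 8.80 CPM of RNA in siGFP, siNC and Lipo and 7.63, 6.90 and 6.27 in knockdowns A, C and D. No knockdown value of Rpl26 reached the controls, but siGFP lay far above the other controls, and the fold of -0.63 ± 0.19, the lowest of any member, was not called (edgeR adjusted p = 0.0775). Without siGFP it was -0.38. The RNA of Mdm2 rose by 0.63 ± 0.13 and its footprints by 0.93 ± 0.15 (SE; edgeR adjusted p = 0.0249 and 0.00705). Its RNA call was kept only without knockdown C (largest edgeR adjusted p = 0.105), and its footprint call was lost without Lipo (0.0558 in edgeR).

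The stalk proteins Rplp0, Rplp1 and Rplp2 and the stalk-base protein Rpl12 bring elongation factors to the ribosome. Their RNA folds lay between -0.18 and -0.07, and none was called. Rplp2 was among the few members with higher footprints: 316, 353 and 339 CPM in the controls and 390, 430 and 357 CPM in knockdowns A, C and D. The groups did not overlap, although siNC and D lay close, and the fold of 0.20 ± 0.07 was not called (edgeR adjusted p = 0.143). Rpl12 was at -0.08 ± 0.10 in RNA and 0.25 ± 0.23 in footprints. Rplp0 and Rplp1 footprints were each at -0.12, with SE of 0.07 and 0.09. The stalk genes therefore lay on either side of 0 in footprints.

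The 8 members placed near the exit of the peptide tunnel, where nascent chains meet targeting factors and chaperones, held several of the most extreme folds and also many of the low counts. Their RNA median was -0.30, with 7 of 8 below 0, and their footprint median was -0.17, with 5 of 8 below 0. Rpl39, a very small protein inside the tunnel, had footprints of 4.97, 5.78 and 5.18 CPM in the controls and 8.0, 9.70 and 6.68 CPM in the knockdowns. All knockdown values were above all controls, with a fold of 0.58 ± 0.17 that edgeR did not call (adjusted p = 0.0684), while its RNA was at 0.05 ± 0.07. Rpl31 went the other way: footprints were 2.96, 2.75 and 3.68 CPM in the controls and 1.80, 2.74 and 1.73 in the knockdowns, a fold of -0.61 ± 0.24 (edgeR adjusted p = 0.162), with RNA at -0.01 ± 0.10. Knockdown C lay directly under siNC, so the groups were barely separate, and Rpl31 has the most pseudogene entries named after it of any member. Rpl35, which with Rpl23a forms the docking site of the signal recognition particle, had RNA of 24.4, 14.6 and 11.7 CPM in the controls and 13.2, 10.9 and 10.2 CPM in the knockdowns. Its footprints were 0.583, 0.892 and 0.485 CPM in the controls and 0.787, 1.35 and 0.969 in the knockdowns. The groups overlapped in each assay, so the opposite signs of the Rpl35 folds, -0.58 ± 0.23 in RNA and 0.62 ± 0.36 in footprints, rest on overlapping values. Without siGFP the RNA fold was -0.22, and without knockdown C the footprint fold was 0.38. Rpl17, the remaining member with a large footprint fold, was at -0.60 ± 0.33 in footprints and -0.42 ± 0.18 in RNA.

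The members that form bridges to the small subunit, Rpl23, Rpl24, Rpl30 and Rpl41, had RNA folds of -0.26 to -0.08. Rpl30 footprints were 10.6, 8.67 and 11.2 CPM in the controls and 7.17, 8.56 and 7.40 in knockdowns A, C and D. The groups did not overlap, C lay next to siNC, and the fold of -0.43 ± 0.14 was not called (edgeR adjusted p = 0.104). Of the 23 remaining members, 20 had RNA folds below 0 and 18 had footprint folds below 0, with medians of -0.21 and -0.07. Rpl28, a protein that budding yeast lacks, had RNA of 1.5, 1.89 and 1.70 CPM in the controls and 0.990, 1.35 and 1.01 in the knockdowns, without overlap and without a call (-0.62 ± 0.26; edgeR adjusted p = 0.194). Rpl37a, a zinc-binding protein, had RNA of 85.4, 82.1 and 86.3 CPM in the controls and 73.2, 68.5 and 61.7 CPM in the knockdowns. Its fold of -0.34 ± 0.09 lay just outside the threshold (edgeR adjusted p = 0.0508). Rpl15 was the only member with all RNA values of the knockdowns above the controls: 100, 116 and 119 CPM against 122, 128 and 133 CPM, a fold of 0.17 ± 0.08 (edgeR adjusted p = 0.259). Altogether 14 members had RNA values of all knockdowns under all controls, where 12.1% of all genes did, and 1 had them above, where 15.0% did. In footprints 8 members lay without overlap under the controls, where 10.6% of all genes did, and 4 above, where 17.7% did.

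The ratio of footprints to RNA, a measure of ribosomes per mRNA, was compared in a single model over the 12 libraries as the interaction of assay and condition. No member was called in either direction, where 0.0% of the 14236 genes tested were called. The member median was 0.05, against 0.001 for all genes, and 32 of 47 members were above 0 and 15 below, where 49.9% of all genes were below. At an unadjusted p under 0.05, 4 members had a higher ratio, where 1.59% of all genes did, and 1 a lower ratio, where 0.78% did; over all genes there were 337 at that level. These were Rpl35 (1.19 ± 0.46), Rpl10a (0.80 ± 0.24), Rpl39 (0.52 ± 0.16), Rpl36 (0.49 ± 0.21) and, below 0, Rpl31 (-0.61 ± 0.23), on the log2 scale with SE. Without siGFP only Rpl39 was higher at that level, where 0.862% of all genes were. Without Lipo or D no member was lower, where 0.409% and 0.981% of all genes were. With the lysate as a block, which pairs the libraries made from the same cells, 11 members had a higher ratio at that unadjusted level, where 4.19% of all genes did, and 1 a lower ratio, where 2.66% did, and again no member was called. The 11 were Rpl7, Rpl7a, Rpl8, Rpl10a, Rpl23, Rpl35, Rpl35a, Rpl36, Rpl36al, Rpl39 and Rplp2. DESeq2 called 2 genes higher and 0 lower for this ratio, none of them a member.

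Rpl10a, a protein reported to be missing from part of the ribosomes, had the smallest unadjusted p for this ratio among the members (0.00517 in edgeR; adjusted p = 1.0). Its RNA was 20.4, 14.3 and 15.1 CPM in siGFP, siNC and Lipo and 15.9, 11.9 and 12.9 CPM in the knockdowns, which overlapped. Its footprints were 13.0, 15.6 and 18.8 CPM in the controls and 27.5, 19.2 and 21.3 CPM in knockdowns A, C and D. The footprint groups did not overlap, with Lipo and C close together, and the footprint fold of 0.49 ± 0.16 was not called (edgeR adjusted p = 0.0905). Its footprints per RNA read were 0.636, 1.09 and 1.24 in the controls and 1.74, 1.61 and 1.65 in the knockdowns, which did not overlap. The change in this ratio was 0.51 to 1.00 on the log2 scale when single libraries were left out.

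The members with a pyrimidine run at the start and those without did not separate in RNA: the median fold was -0.18 for the 15 with a run and -0.15 for the 21 without. In footprints the medians were -0.04 and -0.18, and for the footprint-to-RNA ratio 0.19 and 0.03. The difference between these sets was not tested. The spans of 19 members hold small nucleolar RNA genes, 39 in all, and their median RNA fold was -0.12, against -0.21 for the other 28. Members with 0 or 1, with 2 to 4 and with 5 or more pseudogene entries had median RNA folds of -0.16, -0.18 and -0.21, and median footprint folds of -0.12, -0.06 and -0.24.

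The 33 small-subunit protein genes belong to the subunit that Krr1 helps to build. In RNA 0 were called, where 2.11% of all genes were called lower and 2.69% higher. Of these 33 genes, 27 were below 0 in RNA, against 50.2% of all genes, and the median was -0.13. Their medians per library were -0.01, -0.04 and 0.02 in the controls and -0.01, -0.04 and -0.29 in knockdowns A, C and D. Knockdowns A and C thus lay within the controls and D below them, while for the 60S protein genes all 3 knockdowns lay below. The difference between the subunits was not tested. The mean log2 CPM of the 60S protein genes minus that of the small-subunit genes was -0.80 ± 0.0173 in control RNA and -0.85 ± 0.0625 in the knockdowns (SD, n = 3). In footprints it was -0.94 ± 0.0416 and -0.98 ± 0.0404. The differences of these means, -0.05 and -0.04, were close to the spread between libraries. With medians in place of means, the RNA value was -1.09, -0.95 and -1.30 in the controls and -1.44, -1.63 and -1.44 in the knockdowns. These groups did not overlap and differed by -0.39. Such a median rests on the gene in the middle of each set, so this value need not hold for the sets as a whole. Compared gene by gene with the controls, the median deviation in A, C and D was -0.08, -0.10 and -0.24 for the 60S protein genes. For the small-subunit genes it was -0.01, -0.04 and -0.29. The footprint value with medians was -2.28, -2.56 and -2.39 in the controls and -2.44, -2.42 and -2.54 in the knockdowns, which overlapped. A score over chosen genes carries no p. In footprints 3 small-subunit genes were called, 2 higher and 1 lower, where 3.39% and 2.68% of all genes were. Rps27l, a p53-inducible paralog, rose by 0.41 ± 0.09, Rps24 rose by 0.32 ± 0.07, and Rps2 fell by 0.52 ± 0.11 (edgeR adjusted p = 0.0291, 0.0293 and 0.0215). The calls of Rps24 and Rps2 were lost without any of the 3 controls, and that of Rps27l without siNC or Lipo (largest edgeR adjusted p = 0.132, 0.106 and 0.149).

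Other genes of the pathway were read from lists. Of 55 genes for assembly factors of the 60S subunit, 1 was called in RNA and in footprints: Senp3, a SUMO protease of the nucleolus, fell by 0.42 ± 0.09 in RNA and by 0.39 ± 0.08 in footprints (edgeR adjusted p = 0.0268 and 0.0198), where 2.11% and 2.68% of all genes were called lower. In RNA this call was kept only without knockdown C, and in footprints it was lost without siGFP, Lipo or D (largest edgeR adjusted p = 0.118 and 0.0986). The median RNA fold of the assembly factors was -0.01. Of 17 other genes with TOP mRNAs, Eif3f, a subunit of an initiation factor, fell by 0.27 ± 0.07 in RNA (edgeR adjusted p = 0.0473), a call lost on leaving out any library (0.0699 to 0.197 in edgeR). The median of these 17 was -0.16. No gene of these 17 was called in footprints. The paralogs Rpl39l, Rpl10l and Rpl3l, known from the testis or muscle, and Rpl7l1 were not called, with RNA folds of -0.24, -0.31, -0.10 and -0.19.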

How the data were processed

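R1 mouse embryonic stem cells gave 12 libraries, 6 of RNA and 6 of footprints, as 50-base reads. Per the submitters' processing notes, the authors used STAR, HTSeq and the build mm10; the versions, the annotation and the use of strand were not given in the sources used here. The values deposited are whole-number counts per gene, made from unique alignments and not normalized. Of unique alignments, 66.4% to 68.6% lay on genes in RNA and 36.6% to 42.4% in footprints, 31.2% to 33.4% and 57.5% to 63.3% lay on no feature, and 0.187% to 0.206% and 0.0649% to 0.0725% were ambiguous; only reads on genes entered library sizes. Knockdown columns carry letters and the titles numbers, so columns were assigned to a group, not to a title.

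Genes were tested with edgeR 4.0.16 (limma 3.58.1, R 4.3.3; quasi-likelihood test, filterByExpr, TMM factors of 0.984 to 1.04 in RNA and 0.988 to 1.02 in footprints), adjusted by Benjamini-Hochberg over all genes tested and called under 0.05. No pair of libraries within a group was a duplicate (chi-square per degree of freedom 4.03 to 28.7). Each lysate was split between assays, per the labels' protocols. This pairing was checked by correlating deviations from group means over 7089 genes with at least 20 CPM. The r was 0.247 to 0.692 within a lysate and at most 0.001 between lysates. Deviations from the mean of 3 libraries sum to 0, so low values between lysates of a group are partly built in. Ratios of paralogs were tested by exact permutation. The models were tested on simulated data, with planted changes larger than any member fold in RNA or footprints. That test does not show how smaller changes are called. DESeq2 1.42.0, other scaling, no filter, the lysate block (for the footprint-to-RNA ratio only) and leaving out each library were alternatives.

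Members and lists were chosen with earlier results of these data known. Named with values are called members, the 3 highest and 3 lowest folds, the core, stalk, 5S, paralog and Mdm2-binding genes, and called genes of other lists; further members were named after their values were seen. A gene that this rule names is not reported here. Sequences and gene positions come from RefSeq (GRCm38.p6), in which 36 members had start windows.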

Additional observations from a re-analysis of the deposited data

How the results depend on the processing

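Rpl22l1 in RNA kept its direction and its call under every alternative run, and in footprints it lost the call without siGFP and without Lipo. In RNA, members called lower numbered 2 without scaling factors, 4 without the count filter and 5 with DESeq2, which added Rpl26, Rpl36, Rpl36al and Rpl37a. In footprints 2 were lower and 2 higher (Rpl10a and Rpl39) without the filter, and DESeq2 called those 2 higher. Over all genes, calls lower and higher were 477 and 582 in RNA without the filter and 533 and 662 with DESeq2. In footprints they were 616 and 784 without the filter and 521 and 622 with DESeq2. For the footprint-to-RNA ratio, 2 genes were higher without the filter and 2 with DESeq2. The replicate block, pairing the libraries of a lysate, was run for this ratio only. It called 5 genes higher and 1 lower, no member among them. The cause of these differences was not tested. The median of members in footprints was -0.03 over those with at least 100 CPM, a limit chosen after seeing the data. The large minus small subunit level in RNA differed by -0.39 with medians, which rest on the middle gene of each set. With means it went only from -0.80 in the controls to -0.85 in the knockdowns. Its footprint values with medians overlapped between the groups. The footprint share of the members was 93.8% of control over all unique alignments, and on that measure the groups did not overlap.

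Leaving out 1 library each, members called lower numbered 1 to 3 in RNA (3 without siKrr1 A, 2 without siKrr1 C) and 0 to 3 in footprints (3 without siKrr1 A), and members called higher in footprints 0 to 1 (Rpl10a without siKrr1 C, Rpl39 without siKrr1 D). All genes called ranged from 51 to 539 lower and 63 to 759 higher in RNA, from 64 to 546 lower and 67 to 791 higher in footprints, and from 0 to 1 higher for the ratio. Medians of members ranged from -0.20 to -0.09 in RNA, -0.13 to -0.04 in footprints and 0.04 to 0.09 for the ratio.

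Some folds near 0 changed sign. Without scaling factors, Rpl31 in RNA was at 0.01 and Rpl8 in footprints at 0.02; this setting moved the median of all genes by less than 0.1. Over the fits that left out 1 library, RNA folds ranged from -0.41 to 0.01 for Rpl3, -0.06 to 0.06 for Rpl6, -0.15 to 0.0032 for Rpl22, -0.11 to 0.06 for Rpl31 and -0.18 to 0.01 for Rplp2. Footprint folds ranged from -0.04 to 0.04 for Rpl8 and -0.05 to 0.05 for Rpl22, and the ratio of Rpl22l1 from -0.09 to 0.18. The Rpl36al to Rpl36a ratio ranged from -0.44 to 0.00 in RNA and -0.26 to 0.29 in footprints. Footprints per codon were not run, because no coding lengths were used here. Depth limits the members with few reads, such as Rpl29 and Rpl35.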
